A study of Mus musculus with 92 samples.

Results

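The HoxA cluster is a run of homeobox genes on mouse chromosome 6. Its members here are the 9 genes Hoxa2, Hoxa3, Hoxa4, Hoxa5, Hoxa6, Hoxa7, Hoxa9, Hoxa10 and Hoxa11, of 21887 protein-coding genes in the RefSeq gene table used. They were taken by name, not by any measured value. Every chromatin immunoprecipitation (ChIP-seq) peak of 30 deposited lists was placed from 10 kb before the first to 10 kb after the last member, a window of 103.4 kb (mm10, chr6:52152417-52255810). In all, 210 peaks fell in it.

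The study mapped CTCF, an insulator protein, and 3 alternative STAG subunits of cohesin in cultured mouse cells of the male germline and its precursors. Of the 92 samples, 26 wild-type libraries have a STAG peak list each. STAG1 was read in 2 libraries of each of 5 cell types. These were ESC (embryonic stem cells), EpiLC (epiblast-like cells), 2 stages of primordial germ cell-like cells (d2PGCLC and d4c7PGCLC) and germline stem cells (GSC). STAG2 was read in 2 libraries of ESC and of EpiLC and in 3 of each of the other cell types, and STAG3 in 3 libraries of GSC. ESC, EpiLC and PGCLC are of the BVSC line, which carries the reporters Blimp1-mVenus and Stella-ECFP, and PGCLC were sorted for the Blimp1-mVenus signal. GSC are of the AAG line, which carries Acrosin-EGFP and beta-Actin-EGFP, and were sorted for that signal, so cell type and line cannot be told apart for GSC. CTCF was read only in GSC mutants, with 1 list for each of 4 genotypes, each called on pooled replicates: Stag3KO, Stag2Stag3dKO (with STAG1 alone), Stag1Stag3dKO (with STAG2 alone) and Stag1Stag2dKO (with STAG3 alone). CTCF values therefore have no replicate error and belong to no wild-type cell. Cell identity could not be checked against marker expression, since the lists hold only positions of protein on DNA.

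Hox genes encode homeodomain transcription factors that tell cells their place along the body axis, and their order on the chromosome follows the order in which they are used from head to tail. In pluripotent cells and in germ cells most Hox genes are held silent by Polycomb proteins. CTCF sites between the genes stop cohesin, a ring-shaped complex that extrudes DNA loops, and such stops can separate silent from active parts of a cluster. Each cohesin ring carries 1 STAG subunit, and the STAG3 form was long studied mainly in meiotic cells.

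The window was unevenly occupied. A place is an interval made by merging peaks of any list that overlap by at least 1 bp. The 210 peaks formed 41 places, and 2 of them held a peak in all 30 lists. One lay at the start of Hoxa5 and the other between Hoxa7 and Hoxa9. A further 2 places, between Hoxa6 and Hoxa7 and inside Hoxa10, were called by CTCF in all 4 genotypes and by part of the STAG lists. Of the 41 places, 36 held no CTCF peak, and 20 were called in 1 list alone.

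**Figure D1:**
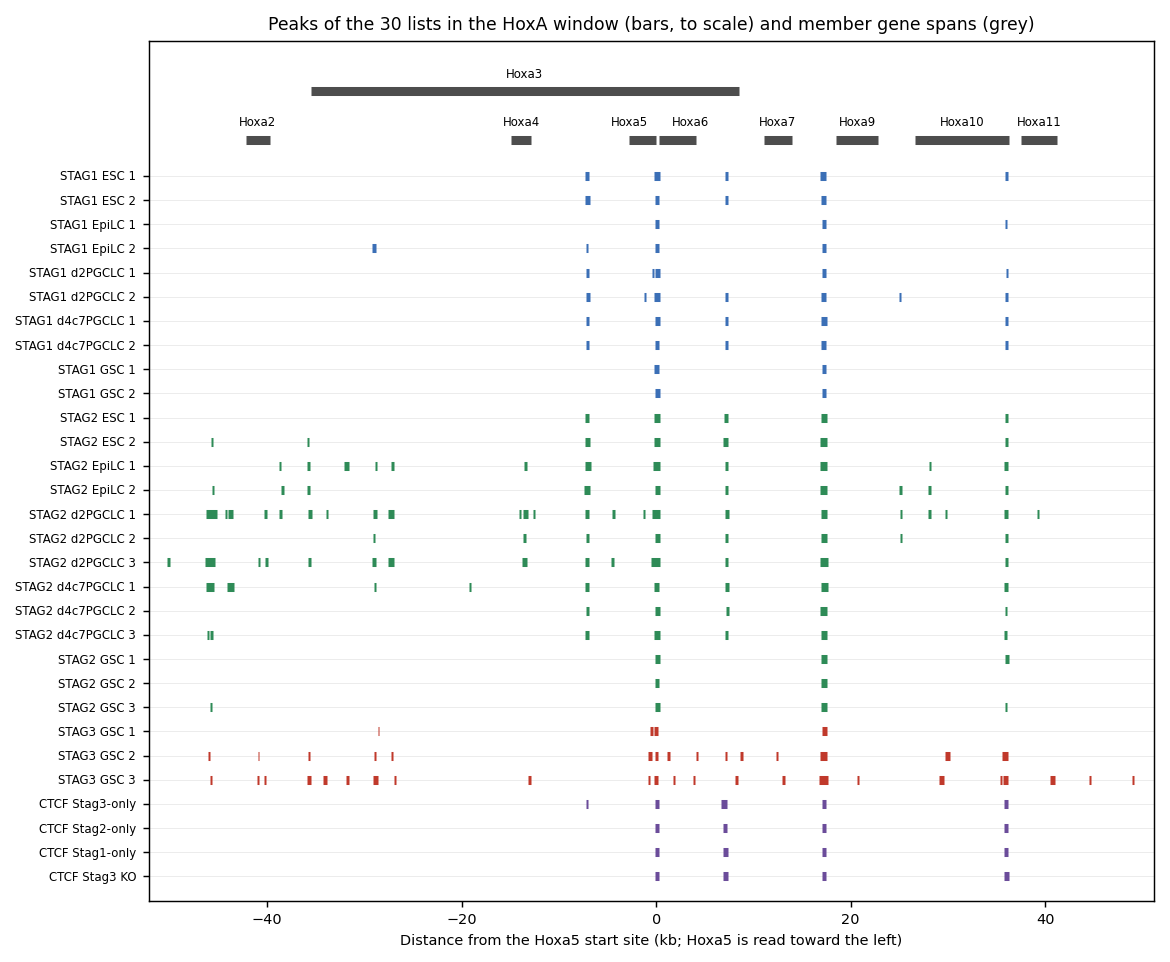
Each row is 1 of the 30 peak lists and each coloured bar 1 peak, drawn to scale against the distance from the Hoxa5 start site in kb, with the spans of the 9 members in grey above. The places at the Hoxa5 start and between Hoxa7 and Hoxa9 form columns through all 30 lists, and the side of Hoxa2 to Hoxa4 holds mostly STAG2 and STAG3 peaks.

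The Hoxa5 promoter held a near match to the CTCF motif. RefSeq promoter windows (GRCm38.p6, from 250 bases before to 50 after a start) were matched by symbol for 8 of the 9 members, giving 9 windows because Hoxa10 has 2 starts. All are on the minus strand. They were searched on both strands for the 14-base CTCF core consensus with at most 1 mismatch, and no second motif was searched. A match was found in 1 of the 9 windows, that of Hoxa5, against 749 of all 32851 promoter windows of that length (2.28%). The 28 HoxB, HoxC and HoxD genes used for comparison had only 14 promoter windows, so not all of them were searched, and none of these windows held a match. With so few windows at a background of 2.28%, this sets no contrast to Hoxa5. The match had 1 mismatch and lay at chr6:52204657-52204670, from 70 to 83 bases upstream of the start, and its upstream end lay 7 to 14 bases from the 4 CTCF summits. In each of the 30 lists 1 peak covered it. The Hoxa5 window (chr6:52204538-52204837, minus strand) is shown because a place called in all 30 lists lies on it, with the match in capitals.
Hoxa5: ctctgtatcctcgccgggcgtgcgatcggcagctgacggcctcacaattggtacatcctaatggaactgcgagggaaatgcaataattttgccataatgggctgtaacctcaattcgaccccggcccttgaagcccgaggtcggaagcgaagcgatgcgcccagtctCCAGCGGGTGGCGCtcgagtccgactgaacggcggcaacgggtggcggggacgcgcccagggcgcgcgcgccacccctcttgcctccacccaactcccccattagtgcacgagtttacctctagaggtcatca
The upstream Hoxa10 window (chr6:52240805-52241104, minus strand) is shown for contrast. Its last 28 bases, in capitals, lie inside the widest CTCF interval, that of Stag3KO, whose summit lies within the gene beyond the end of the window. No match was found in it, which says only that these letters are not in this window.
Hoxa10: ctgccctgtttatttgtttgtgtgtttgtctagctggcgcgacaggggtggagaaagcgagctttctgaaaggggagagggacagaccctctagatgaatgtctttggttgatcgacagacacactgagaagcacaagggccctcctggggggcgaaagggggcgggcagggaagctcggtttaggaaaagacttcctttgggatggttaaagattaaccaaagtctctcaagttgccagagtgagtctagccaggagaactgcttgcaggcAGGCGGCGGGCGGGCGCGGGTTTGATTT

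Hoxa5 encodes a factor used in neck and thoracic patterning. Its start was the only member start with a peak within 2500 bp in all 30 lists, which 2.97% of all protein-coding genes had. The merged place (chr6:52203727-52205018) reached from inside Hoxa5 to the 3′ part of Hoxa6. The fold enrichment of a peak, the ratio of its summit to the local background in the authors' lists, is the authors' value for that peak and serves here to rank peaks within a list. A few such values are printed as a description, and no difference between lists is drawn from them. The STAG1 peak stood at percentile 99.0 and 95.5 of its list in ESC, 95.7 and 98.4 in EpiLC, and 99.2 and 99.5 in d2PGCLC. It stood at percentile 96.6 and 95.8 in d4c7PGCLC, and at 99.2 and 97.7 in GSC. All 10 STAG1 lists thus had it among their strongest 5% of peaks. In GSC STAG1 replicate 1 it was rank 77 of 9641 peaks.

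For STAG2 the same peak stood at percentile 94.0 and 95.5 in ESC, 97.6 and 97.9 in EpiLC, and 96.0, 95.7 and 96.6 in d2PGCLC. In d4c7PGCLC the 3 libraries gave 90.9, 85.0 and 90.9, and in GSC 97.9, 96.3 and 97.9. The 3 STAG3 lists had it at percentile 63.0, 89.7 and 79.1, below every STAG1 list and overlapping only the STAG2 lists of d4c7PGCLC. The CTCF lists had it between 98.0 and 98.7. Lists differ in length, so a percentile describes a peak in its own list and shows no change between lists.

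The other place held by all 30 lists lay between Hoxa7 and Hoxa9 (chr6:52221335-52222223), in no member span and with its centre 3206 bp upstream of the Hoxa7 start. Hoxa9 encodes a posterior factor that is also known from blood progenitors and leukaemia. No member start lies within 2500 bp of the centre of this place. In STAG2 lists its peak was at percentile 98.4 and 98.3 in ESC, 95.2 and 97.6 in EpiLC, and 98.1, 98.4 and 97.6 in d2PGCLC. It was at 99.3, 99.5 and 99.3 in d4c7PGCLC and at 97.8, 97.3 and 98.2 in GSC. In d4c7PGCLC it was thus among the top 1% of peaks, where the Hoxa5 peak was not among the top 5%. In STAG1 lists the lowest percentile was 46.9, in EpiLC replicate 1, and the others ran from 88.2 to 99.2. The STAG3 lists had it at 72.2, 99.4 and 97.5, and the CTCF lists between 98.4 and 99.3.

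Peaks in all 26 STAG lists were found at 9.55% of the 36623 sites that CTCF held in all 4 genotypes. The HoxA window holds 4 such shared CTCF sites, and 2 of them were of this kind.

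Hoxa3, needed for thymus and parathyroid formation, has the longest span of the members and encloses Hoxa4, Hoxa5 and Hoxa6 in the gene table. Near its start, between Hoxa6 and Hoxa7, lay a place (chr6:52211294-52212089) that CTCF held in all 4 genotypes at percentile 75.9 to 78.3. STAG2 had a peak there in 10 of 10 lists of ESC, EpiLC, d2PGCLC and d4c7PGCLC and in 0 of 3 GSC lists. Over all shared CTCF sites, 15.4% had this pattern. STAG1 had a peak in both ESC and both d4c7PGCLC lists and in d2PGCLC replicate 2, and none in EpiLC or GSC. STAG3 had one in replicate 2 only. The STAG2 peaks were of middle rank, between percentile 28.2 in d2PGCLC replicate 3 and 68.0 in d4c7PGCLC replicate 1.

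A place between Hoxa4 and Hoxa5 (chr6:52197190-52197841) showed the same division by cell type. Hoxa4 encodes an anterior factor expressed in male germ cells. STAG2 again had a peak in 10 of 10 lists outside GSC and in 0 of 3 GSC lists. Of the 135204 merged STAG2 intervals of the genome, 6.98% had that pattern, a total not limited to intervals called in all lists outside GSC. The STAG2 lists of GSC held 13698 to 25979 peaks and those of the other cell types at least 35799. Whether list length bears on this place or on the one between Hoxa6 and Hoxa7 was not tested. STAG1 had a peak in 7 of its 8 lists outside GSC, missing EpiLC replicate 1, and in neither GSC list. No STAG3 list had one. CTCF was called there only in Stag1Stag2dKO, with a fold enrichment of 5.31 and percentile 12.2 in that list, and in none of the other 3 genotypes. In STAG2 lists the place ranked well above that, from percentile 60.5 in d4c7PGCLC replicate 3 to 85.9 in d4c7PGCLC replicate 1.

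Hoxa10, a posterior factor of uterus and limb, carried the last of the shared CTCF sites (chr6:52240169-52240832), just inside its upstream start. CTCF stood there at percentile 87.7 to 95.0. STAG2 had a peak in 12 of 13 lists, missing GSC replicate 2, and STAG1 in 6 of 10, missing both GSC lists, ESC replicate 2 and EpiLC replicate 2. The STAG1 peaks stood between percentile 6.0 and 42.4. The STAG2 peaks ran from percentile 0.123 in d4c7PGCLC replicate 2 to 66.3 in d2PGCLC replicate 1, so some were near the floor of their list. STAG3 had a peak in replicates 2 and 3, at percentile 95.7 and 90.9, which was higher in their lists than the Hoxa5 peak at 89.7 and 79.1. No STAG1 or STAG2 list placed the Hoxa10 peak above the Hoxa5 peak.

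**Figure D2:**
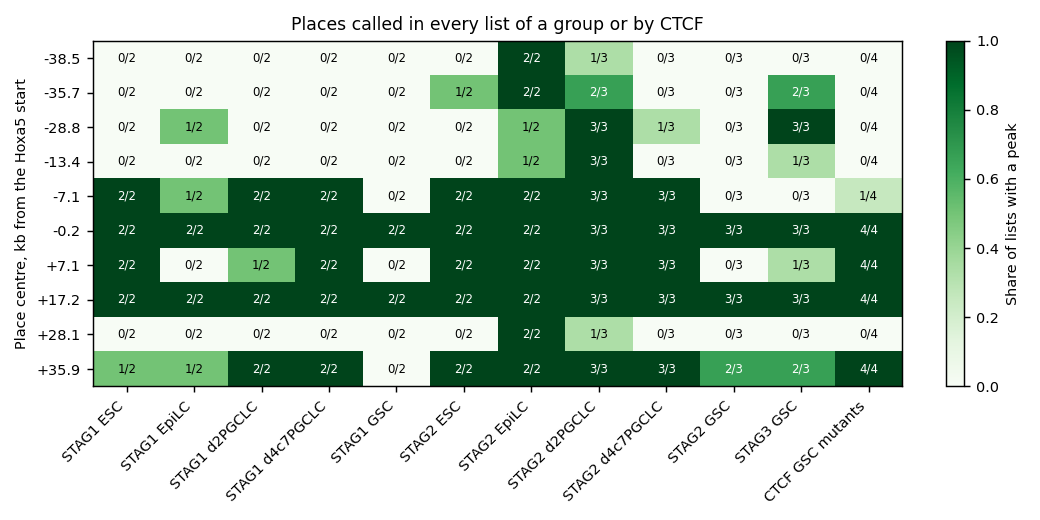
Rows are the 10 places that were called in every list of a protein and cell type or by CTCF, named by the distance of their centre from the Hoxa5 start in kb. Columns are proteins and cell types, and colour and text give how many of the lists had a peak there. The rows at -7.1 and +7.1 kb are filled for STAG2 outside GSC and empty for STAG1 and STAG2 in GSC.

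The other 5 places called in every list of a group had no CTCF peak. A place upstream of Hoxa2 (chr6:52165771-52166315), a gene of hindbrain and branchial arch patterning, was called in both EpiLC STAG2 lists and in d2PGCLC STAG2 replicate 1. One at the 3′ end of Hoxa3 (chr6:52168669-52169159) was called in 5 STAG2 lists, both of EpiLC among them, and in STAG3 replicates 2 and 3. One within the Hoxa3 span (chr6:52175364-52176134) was called in all 3 d2PGCLC STAG2 lists and all 3 STAG3 lists, and in EpiLC STAG2 replicate 1, d4c7PGCLC STAG2 replicate 1 and EpiLC STAG1 replicate 2. One over Hoxa4 (chr6:52190773-52191691) was called in all 3 d2PGCLC STAG2 lists, EpiLC STAG2 replicate 1 and STAG3 replicate 3. One within Hoxa10 (chr6:52232518-52232842) was called in both EpiLC STAG2 lists and d2PGCLC STAG2 replicate 1. Over the 36 places without CTCF the fold enrichments ran from 2.85 to 8.97.

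By protein, 14 places were called by STAG3 alone, 10 by STAG2 alone and 9 by STAG2 and STAG3. Each of the 14 STAG3 places was called in 1 list only, 10 in replicate 3 and 4 in replicate 2, so no second STAG3 list repeated any. Of the STAG2 places, 4 were called only in d2PGCLC replicate 1, 1 only in d2PGCLC replicate 3 and 1 only in d4c7PGCLC replicate 1. None was called by STAG1 alone. STAG1 had a peak at 3 of the 36 places without CTCF, STAG2 at 22 and STAG3 at 24. Peaks with a summit on the side of Hoxa2 to Hoxa4, before the Hoxa5 span, made up 8 of 42 STAG1 peaks, 52 of 109 STAG2 peaks (47.7%), 15 of 42 STAG3 peaks (35.7%) and 1 of 17 CTCF peaks (5.88%). These shares pool lists of unequal length and are a description.

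The members could be ordered by how many of the 30 lists had a peak within 2500 bp of their start. Hoxa5 had 30, Hoxa10 had 24 and Hoxa3 had 21, and CTCF was called at these 3 in all 4 genotypes. The other members had few: 6 lists for Hoxa2, 5 each for Hoxa4 and Hoxa9, and 2 each for Hoxa6, Hoxa7 and Hoxa11. For Hoxa4 both ends of the span were used.

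At Hoxa2 the 6 lists were 4 of STAG2, from EpiLC and d2PGCLC, and 2 of STAG3. At Hoxa4 they were all 3 d2PGCLC and 1 EpiLC list of STAG2 and 1 of STAG3. At Hoxa9 they were 1 list of STAG1 (d2PGCLC), 3 of STAG2 and 1 of STAG3. Hoxa6, which is expressed with Hoxa5 and Hoxa7 in the trunk, and Hoxa7 had a start peak only in 2 of 3 STAG3 lists each, and in none of the 23 STAG1 and STAG2 lists. The places within 2500 bp of these starts were each called in 1 list, so the STAG3 lists did not share a place there. The share of all genes with this pattern was not computed. Hoxa11, a factor of limb and reproductive tract, had 1 STAG2 list (d2PGCLC) and 1 STAG3 list. In STAG3 replicate 3 all 9 members had a start peak, in replicate 2 there were 6 and in replicate 1 only Hoxa5. Over all protein-coding genes the same 3 lists had a start peak at 59.9%, 59.0% and 24.5%. The member count and this share were both lowest in replicate 1, while replicates 3 and 2 had near-equal shares with 9 and 6 members.

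**Figure D3:**
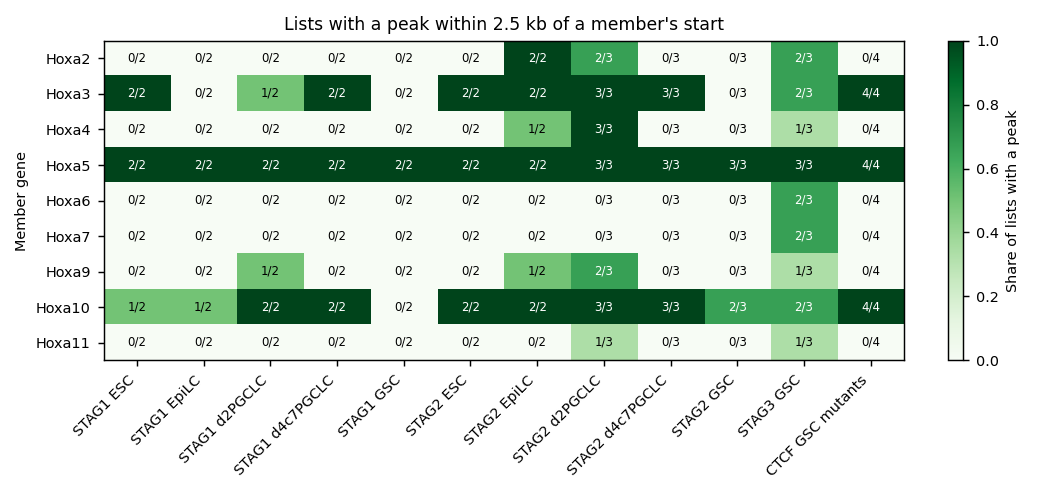
Rows are the 9 members and columns the proteins and cell types, and colour and text give how many lists had a peak within 2.5 kb of the member's start (either end for Hoxa4). Hoxa5 is filled throughout, Hoxa3 and Hoxa10 in most groups outside GSC, and Hoxa6 and Hoxa7 only for STAG3.

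Members with a start peak in every list of a group were set beside all protein-coding genes. For STAG1 these were 3 of 9 members in d4c7PGCLC (21.5% of all genes), 2 in ESC (17.1%) and in d2PGCLC (14.2%), and 1 in EpiLC (7.75%) and in GSC (5.57%). For STAG2 they were 4 of 9 in EpiLC (46.7% of all genes) and in d2PGCLC (33.1%), 3 in ESC (44.7%) and in d4c7PGCLC (26.1%), and 1 in GSC (10.3%). For STAG3 the count was 1 of 9 (23.6%), and for CTCF in all 4 genotypes 3 of 9 (23.8%). With 9 members, 1 gene is 11.1%, and the member counts lay within 2 genes of the share of all genes in each group. These counts are near the background and are no result about the members.

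Counts of peaks over the whole window differed between STAG2 and STAG1. ESC had 5 and 4 peaks in the STAG1 lists, and EpiLC had 3 and 4. The STAG1 lists of d2PGCLC had 5 and 7, those of d4c7PGCLC 5 and 5, and those of GSC 2 and 2. For STAG2, ESC had 5 and 7 peaks and EpiLC 12 and 10. The 3 STAG2 lists of d2PGCLC had 23, 8 and 14, those of d4c7PGCLC 9, 5 and 7, and those of GSC 3, 2 and 4. The groups did not overlap in EpiLC and d2PGCLC, and met or overlapped in the other 3 cell types. Overlap was not computed for other windows, so its lack is not shown to be particular to HoxA. The mean over cell types was 8.4 for STAG2 and 4.2 for STAG1, a difference of 4.2 peaks (exact permutation test of protein labels within cell type, two-sided, p = 0.00483). Adjusted over the 15274 gene-bearing windows of the same length that held any peak (Benjamini-Hochberg), p was 0.0130. STAG2 was called higher in 69.5% of those windows, so the call itself is shared with most of them, and the size was at percentile 95.5 of all windows.

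STAG2 lists were also the longer ones, with up to 84904 peaks against 42013 at most for STAG1. As a share of its list, HoxA had 1.54 peaks per 10000 for STAG2 and 1.76 for STAG1 (difference -0.217, exact permutation p = 0.151, adjusted p = 0.257). This share was called lower for STAG2 in 15.2% of windows. When each list was reduced to its 9641 peaks of highest fold enrichment, the difference in number was 0.0667 peaks (exact permutation p = 1). That setting left 6 places in the window, so a small difference follows from its construction. Without the 10 kb flanks, the difference in share was -0.381 per 10000 (exact permutation, adjusted p = 0.0216).

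By cell type, STAG2 had on average 9 more peaks than STAG1 in d2PGCLC and 7.5 more in EpiLC. The excess was 2 in d4c7PGCLC, 1.5 in ESC and 1 in GSC. Of the 10 pairs of cell types, none passed the exact permutation test of the difference between these differences after adjustment over the 10 pairs. The smallest raw exact permutation p was 0.0333, for EpiLC against d4c7PGCLC (adjusted p = 0.333). The mean number of members with a start peak was 1.47 higher for STAG2, given without a test.

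**Figure D4:**
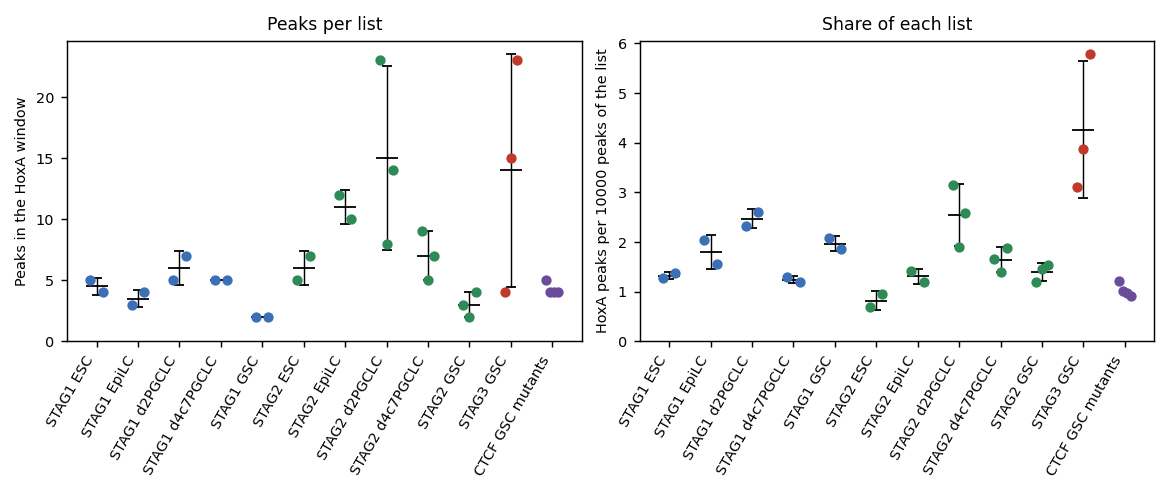
Points are lists, with the number of peaks in the HoxA window on the left and that number per 10000 peaks of the list on the right, by protein and cell type. Horizontal bars are means and whiskers 1 SD over lists (n = 2 or 3), left out for CTCF, whose points are 4 genotypes. The d2PGCLC STAG2 lists (8 to 23 peaks) and the STAG3 lists (4 to 23) spread most.

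For STAG1 and STAG2, GSC had the lowest mean number of peaks of the 5 cell types. STAG1 had 2 peaks in both GSC lists and STAG2 3, 2 and 4, and all 5 lists held the Hoxa5 place and the place between Hoxa7 and Hoxa9. The mean over the 2 proteins was 2.5 in GSC and 7.38 in the other cell types, a difference of -4.88 peaks (exact permutation test of cell type labels within protein, two-sided, p = 0.00769, adjusted over windows p = 0.0183). GSC was called lower in 55.1% of windows. The call was lost without STAG2 replicate 1, 2 or 3 of GSC in turn (exact permutation, adjusted p = 0.0626, 0.0910 and 0.0598). GSC lists were also the shortest of each protein. As a share of the list, HoxA had 1.68 peaks per 10000 in GSC and 1.695 elsewhere (difference -0.0130, exact permutation p = 0.966, adjusted p = 1), and 24.3% of windows were called lower. At 9641 peaks per list, with 6 places left in the window, the difference in number was -0.05 (exact permutation p = 1). The comparison sets 1 cell type and line against 4, so the p-values measure only the spread between lists.

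STAG3 in GSC had 4, 15 and 23 peaks in the window, beside 2 and 2 for STAG1 and 3, 2 and 4 for STAG2 in the same wild-type cells. Replicate 1, the shortest STAG3 list with 12832 peaks, reached the highest STAG2 count, and the others lay above every STAG1 and STAG2 list of GSC. The mean was 14 ± 9.54 (SD, n = 3). The differences of 11 from STAG2 and 12 from STAG1 both had p = 0.2 in an exact permutation test (two-sided), in designs that cannot go below 0.1. At 9641 peaks per list both differences were 1.33 peaks (exact permutation p = 0.1, the smallest these designs allow). Per 10000 peaks the STAG3 lists had 3.12, 3.88 and 5.80, the STAG2 lists 1.20, 1.46 and 1.54, and the STAG1 lists 2.07 and 1.86, with no overlap. Other windows were not compared in this way, so the lack of overlap is not shown to be particular to HoxA. The count exceeded that of 96.4% to 99.98% of gene-bearing windows in the 3 STAG3 lists, of 97.2% to 99.9% in the 3 d2PGCLC STAG2 lists, and of 97.3% and 99.1% in the d2PGCLC STAG1 lists. Peak names place the STAG3 lists in a working directory of their own, so calling run and antibody cannot be told apart.

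Where those STAG3 peaks lay could be set beside the d2PGCLC STAG2 places, the other group with many peaks. STAG3 had a peak at 28 places and d2PGCLC STAG2 at 25, and 13 were common to both, 46.4% of the STAG3 places and 52.0% of the d2PGCLC STAG2 places. Places called in 1 list alone came mainly from the same libraries: 10 from STAG3 replicate 3, 4 from STAG3 replicate 2 and 4 from d2PGCLC STAG2 replicate 1.

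The share of HoxA peaks on a shared CTCF site was lower for STAG2. For STAG1, ESC had 80% and 75%, EpiLC 100% and 50%, d2PGCLC 60% and 57.1%, d4c7PGCLC 80% in both lists and GSC 100% in both lists. For STAG2, ESC had 80% and 57.1%, EpiLC 33.3% and 40%, and d2PGCLC 17.4%, 50% and 28.6%. The STAG2 lists of d4c7PGCLC had 44.4%, 80% and 57.1%, and those of GSC 100%, 100% and 75%. The 2 proteins did not overlap in EpiLC and d2PGCLC. The mean over cell types was 57.9% for STAG2 and 78.2% for STAG1, a difference of -20.3 points (exact permutation test within cell type, two-sided, p = 0.00433). This test was run on the HoxA window alone. Neither the difference nor the lack of overlap was set beside other windows, so neither is shown to be particular to HoxA. All 10 STAG2 lists outside GSC held the same number of CTCF-site peaks, 4, so their share moved with the number of peaks elsewhere, from 1 to 19. At 9641 peaks per list, with 6 places left in the window, the difference was -2.22 points (exact permutation p = 1). In STAG3 lists the share was 50%, 26.7% and 13.0%.

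CTCF itself had nearly the same places in each genotype. There were 4 peaks in Stag3KO, in Stag2Stag3dKO and in Stag1Stag3dKO, and 5 in Stag1Stag2dKO, whose extra peak was the one between Hoxa4 and Hoxa5. The 4 common places had summits spread over 35.9 kb, with 7.0, 10.1 and 18.7 kb between neighbours. Their fold enrichments ran from 28.0 to 40.3 over all genotypes, a description without replicates.

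At these 4 places the peak summits were set against the mean CTCF summit. At the Hoxa5 start the STAG1 summits lay from -15 to 34 bp and the STAG2 summits from -4 to 23 bp of it, where positive values point toward Hoxa11. Between Hoxa7 and Hoxa9 they lay from -30 to 30 bp and from -15 to 23 bp. At both places the STAG1 and STAG2 ranges included the CTCF summits. Between Hoxa6 and Hoxa7 they stood apart: all 5 STAG1 summits (59.8 to 126 bp) and all 10 STAG2 summits (76.8 to 196 bp) lay on the Hoxa11 side of every CTCF summit. All STAG2 summits were on 1 side of all CTCF summits at 49.5% of the shared CTCF sites with a peak in at least 10 STAG2 lists, so that pattern is common. Inside Hoxa10, 8 of 12 STAG2 summits lay on the Hoxa11 side and 4 on the other, from -47.8 to 85.3 bp.

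STAG3 summits lay apart from those of STAG1 and STAG2 at 2 of these places. At the Hoxa5 start all 3 lay on the Hoxa2 side of every CTCF summit, at -124, -58 and -102 bp for replicates 1 to 3. Those of replicates 1 and 3 lay inside the Hoxa5 span and that of replicate 2 just upstream of the start. Between Hoxa7 and Hoxa9 they also lay on that side, at -123, -66 and -47 bp. The ranges did not overlap those of STAG1 or STAG2 at either place, which was so at 36.2% of the 3499 shared CTCF sites with a peak in all 26 STAG lists. All 3 STAG3 summits were on 1 side of all CTCF summits at 50.8% of the shared CTCF sites with a peak in all 3 STAG3 lists. The other places did not show this shift. Between Hoxa6 and Hoxa7 the summit of STAG3 replicate 2 lay at 63.75 bp, on the Hoxa11 side and within the STAG1 range. Inside Hoxa10 the summits of replicates 2 and 3 lay at -10.75 and 19.25 bp, within the STAG2 range.

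**Figure D5:**
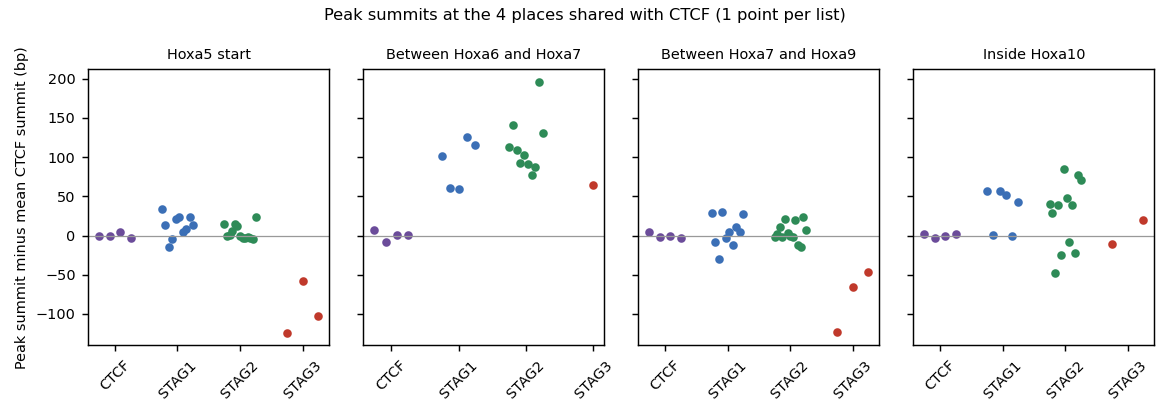
Each panel is a place that CTCF held in all 4 genotypes, and each point the summit of 1 list, in bp from the mean CTCF summit, with positive values toward Hoxa11. STAG3 points (-124 to -47 bp) lie under those of STAG1 and STAG2 in the panels of the Hoxa5 start and of Hoxa7 to Hoxa9, and STAG1 and STAG2 lie above CTCF between Hoxa6 and Hoxa7.

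Of the 28 HoxB, HoxC and HoxD genes listed for comparison, 4 had a start peak in all 30 lists (2.97% of all genes). They were Hoxb5, Hoxb6, Hoxb9 and Hoxc10. These were named after their values were seen. Hoxb5 is the paralogue of Hoxa5. Hoxc5 and Hoxc6 had a start peak in 29 lists, and neighbouring starts can be counted through the same peak. Start peaks in every GSC STAG1 list were found at 7 of the 28 genes and 1 of the 9 members (5.57% of all genes). In every GSC STAG2 list they were found at 9 and 1 (10.3% of all genes). No contrast between the clusters is drawn from these counts. Among 8 genes around the HoxA cluster (Skap2, Evx1, Hibadh, Tax1bp1, Jazf1, Snx10, Cbx3 and Hnrnpa2b1), none had a CTCF start peak in any genotype, against 29.9% of all protein-coding genes. One, Hibadh, had a STAG1 start peak, in 1 d2PGCLC list. For STAG2 each of the 8 had a start peak in 3 to 10 of the 13 lists, and for STAG3 in 1 or 2 of the 3.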

How the data were processed

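Peak lists were used as the authors deposited them, in the MACS2 narrowPeak layout. Per the submitters' processing notes, the tools were MACS2, Bowtie2 2.3.4.1, cutadapt 1.9.1, deepTools 3.5.0, Trim Galore 0.4.1, bedtools 2.29.2 and SAMtools 1.7, and the builds mm10 and GRCm38.p3. Options, MACS2 version and control libraries were not given in the sources used here. For each peak, the deposited lists give a fold enrichment (a linear ratio), −log10 of a p-value, −log10 of a q-value, a score of 10 times −log10 q and the summit. All deposited peaks had −log10 q of at least 2. Sequencing depth is unknown here, so a place without a peak is one where none was called.

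Groups were compared by exact permutation tests over lists (Python 3.11.15, NumPy 2.4.6), run on the HoxA window and on every window of that length touching a protein-coding gene, with Benjamini-Hochberg adjustment, and tested on simulated data. The test on the share of CTCF-site peaks and those on STAG3 were run on the HoxA window alone. Gene starts came from RefSeq (GRCm38.p6). All 9 members are named. A place is described when it was called in every list of a protein and cell type or in a CTCF genotype, and the others are counted. The members and lists were chosen with earlier results of these data known. A planned test on the number of members with a start peak is given as a count only. The labels do not say whether replicates were separate cultures, so p-values may measure technical spread.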

Additional observations from a re-analysis of the deposited data

How the results depend on the processing

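Several comparisons changed when lists were brought to equal length. With every list reduced to its 9641 peaks of highest fold enrichment, the excess of STAG2 over STAG1 peaks was 0.0667 (exact permutation p = 1), the GSC difference -0.05 (p = 1), the difference in the share on CTCF sites -2.22 points (p = 1), the difference in members with a start peak 0, and the number of places 6. This setting keeps the strongest peaks of each list and so few places that small differences follow from its construction. List length was not tested apart from it. The difference in share between GSC and other cell types, never past the threshold, changed sign at −log10 q of at least 5 (0.0290 per 10000), without flanks (0.0199) and in covered kb (0.123), and ran from -0.0683 to 0.0680 when each list was left out in turn. The STAG2 share relative to STAG1 passed the threshold without flanks (-0.381, exact permutation, adjusted p = 0.0216). The causes were not tested. The GSC difference ran from -5.15 to -4.15 peaks as lists were left out in turn, and 3 of 23 such fits lost the call. The other leave-out ranges were 3.40 to 4.90 for STAG2 over STAG1 peaks, -25.3 to -15.3 points for the CTCF share, and 32 to 41 places. For STAG3 in GSC they were 6.5 to 16 peaks over STAG2 and 7.5 to 17 over STAG1, neither past the threshold (exact permutation). In covered kb, CTCF held 2.22 kb in Stag1Stag2dKO, 1.76 in Stag1Stag3dKO, 1.89 in Stag2Stag3dKO and 1.99 in Stag3KO.

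Same-numbered STAG1 and STAG2 lists did not deviate together: over windows, the correlation of their deviations ran from -0.0557 to 0.00304 in 10 pairs. In ESC and in EpiLC both pairs gave the same value, so the 10 values are not independent. No pairing by number was seen, but peak counts of different proteins cannot exclude that same-numbered lists share a sample. With the replicate number as a block, the STAG2 excess was 4.2 peaks (exact permutation, adjusted p = 0.0483), the share difference -0.258, the GSC difference -4.88, the GSC share difference -0.0130, the member difference 1.5 and the CTCF share difference -18.0 points. No call changed under this replicate block.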
